A study of Mus musculus with 9 samples.

Results

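The open chromatin around 10 genes that control exit from the cell cycle was described in the developing mouse cochlear duct. The genes were the cyclin-dependent kinase inhibitors Cdkn1b, Cdkn1a, Cdkn1c, Cdkn2c and Cdkn2d, the D-type cyclins Ccnd1 and Ccnd2, the retinoblastoma gene Rb1, and the Myc family genes Mycn and Mycl1. A peak was assigned to one of these genes when its summit, the base with the highest signal, lay nearest to a protein-coding transcription start site of that gene, at most 500 kb away. In this way 289 of 286577 listed peaks, and 63 of 69354 merged regions, were assigned to 9 of the 10 genes. Cdkn2d received none.

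Accessible chromatin had been mapped by ATAC-seq, in which a transposase inserts sequencing adapters into DNA that is not wrapped in nucleosomes. The 9 samples came from embryos heterozygous for an EGFP coding sequence knocked into one allele of Sox2 (strain B6;129S-Sox2tm2Hoch/J), so that every group carried the same modified allele. Each Sox2-EGFPhigh+ replicate was 1 litter of pooled cochlear ducts, from which the cells with the brightest EGFP were sorted. The groups were Sox2-EGFPhigh+ cells at E12 (n = 2), E14.5 (n = 2) and E16 (n = 2), and Sox2-EGFP- cells at E14.5 (n = 1) and E16 (n = 2), with no E12 Sox2-EGFP- sample. The separate cell type tag of 3 of the 4 E16 samples named the other cell type than its title, and the titles were followed. Sox2-EGFPhigh+ cells are enriched for the prosensory domain, and the sort was defined by EGFP alone, so that other Sox2-expressing cells may be present. Bulk libraries do not tell a site open in few cells from a site weakly open in many.

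Prosensory cells are the progenitors of the hair cells and support cells of the organ of Corti. They stop dividing in a wave that runs from the apex to the base of the duct, between the first 2 stages sampled here. Cdkn1b encodes p27Kip1, which binds and blocks cyclin-dependent kinases and is the inhibitor best known for closing the prosensory cell cycle. Cyclins of the D type push cells past G1 by activating kinases that phosphorylate the retinoblastoma protein, which otherwise holds E2F factors inactive, and Myc proteins promote growth and division.

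The lists differed in length, and this touches every count below. The E12 Sox2-EGFPhigh+ lists held 13817 and 7577 peaks. The later Sox2-EGFPhigh+ lists held 66332 and 22962 peaks at E14.5 and 39314 and 65870 at E16. The Sox2-EGFP- lists held between 23302 and 23899. The lists hold no reads, so that no interval for a single peak was computed, and the read totals that the study gives for its libraries were not used here. Each of the 286577 peaks had an overlapping partner in a further sample of the same cell type, and 0 regions had a peak in 1 sample alone. A region of one cell type alone therefore had peaks in at least 2 samples. Of 105 regions nearest to 7 prosensory marker genes (Sox2, Isl1, Jag1, Hey2, Lfng, Gata3 and Prox1), 85 had peaks in Sox2-EGFPhigh+ samples alone, a class that held 65.5% of all regions, and of 22 regions nearest to 4 otic mesenchyme markers (Pou3f4, Tbx18, Col1a2 and Twist1) 9 had peaks in Sox2-EGFP- samples alone. Each Sox2-EGFP- sample had a peak in 15 to 17 of those 22 regions. Of 10 regions nearest to the neuronal genes Neurod1 and Neurog1, 8 had peaks in Sox2-EGFPhigh+ samples alone. So had 21 of 26 regions near hair cell markers, 16 of 23 near endothelial markers, 16 of 21 near markers of the roof and nonsensory duct, and 3 of 4 near macrophage markers. The part of these other cell types in the results below was not tested.

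The sequences on which the results turn are given first, as 201 bases of the mm9 genome (plus strand) centred on the summit. The first pair are the strongest regions of Cdkn1b, at its start site (chr6:134870217-134870417) and 8.4 kb downstream of it (chr6:134878696-134878896). Capitals mark GC boxes, the sequence GGGCGG on either strand, which SP factors bind.
Cdkn1b start site: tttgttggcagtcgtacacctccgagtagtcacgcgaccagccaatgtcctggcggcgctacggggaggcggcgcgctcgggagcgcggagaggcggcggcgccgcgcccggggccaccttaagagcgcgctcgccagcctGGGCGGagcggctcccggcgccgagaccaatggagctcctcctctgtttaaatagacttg
Cdkn1b 8.4 kb downstream: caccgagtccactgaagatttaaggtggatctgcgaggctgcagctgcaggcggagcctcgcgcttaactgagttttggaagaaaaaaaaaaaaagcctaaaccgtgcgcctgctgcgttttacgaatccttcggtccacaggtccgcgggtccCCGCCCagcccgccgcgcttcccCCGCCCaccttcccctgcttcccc
The window at the start site ended 2 bases upstream of the annotated start and held 1 GC box, and the downstream window held 2.

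The next 3 regions were found in each of the 6 Sox2-EGFPhigh+ lists and absent from the Sox2-EGFP- lists. They lay 45.6 kb upstream of Mycn (chr12:12994248-12994448), 80.2 kb downstream of the Cdkn1c start site in an intron of Kcnq1 (chr7:150566650-150566850), and 19.2 kb upstream of Ccnd1 (chr7:152144849-152145049). In the first pair capitals mark the SOX sequence CNTTGT on either strand, and in the Ccnd1 region the MYC E-box CACGTG.
Mycn 45.6 kb upstream: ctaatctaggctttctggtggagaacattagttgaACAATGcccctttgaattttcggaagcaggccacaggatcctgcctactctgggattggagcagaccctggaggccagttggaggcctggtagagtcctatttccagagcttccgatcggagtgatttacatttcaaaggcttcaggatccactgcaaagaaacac
Cdkn1c 80.2 kb downstream: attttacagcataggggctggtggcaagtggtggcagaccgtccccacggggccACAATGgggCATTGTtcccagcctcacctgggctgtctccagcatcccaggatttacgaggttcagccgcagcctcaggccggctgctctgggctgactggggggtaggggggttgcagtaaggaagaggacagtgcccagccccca
Ccnd1 19.2 kb upstream: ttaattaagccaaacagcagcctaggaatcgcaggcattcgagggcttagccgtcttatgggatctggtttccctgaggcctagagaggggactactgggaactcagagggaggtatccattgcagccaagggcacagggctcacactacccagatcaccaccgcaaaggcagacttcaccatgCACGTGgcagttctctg
The Cdkn1c region held 2 SOX matches and the Mycn region 1, while no SOX match lay in the Ccnd1 window.

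The last pair were the highest-ranked regions of each class fixed for naming. The region 84.3 kb upstream of Mycn (chr12:13032872-13033072) had peaks in each E14.5 and E16 Sox2-EGFPhigh+ sample but in no Sox2-EGFP- sample, and capitals mark the 21 bases centred on its summit. The region 106.7 kb upstream of Mycn (chr12:13055331-13055531) had peaks in each of the 3 Sox2-EGFP- samples but in no Sox2-EGFPhigh+ sample, and capitals mark the FOXO sequence GTAAACA on either strand.
Mycn 84.3 kb upstream: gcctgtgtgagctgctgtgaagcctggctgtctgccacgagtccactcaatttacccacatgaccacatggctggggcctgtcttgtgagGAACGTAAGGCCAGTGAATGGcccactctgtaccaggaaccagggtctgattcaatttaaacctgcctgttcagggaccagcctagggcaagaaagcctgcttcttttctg
Mycn 106.7 kb upstream: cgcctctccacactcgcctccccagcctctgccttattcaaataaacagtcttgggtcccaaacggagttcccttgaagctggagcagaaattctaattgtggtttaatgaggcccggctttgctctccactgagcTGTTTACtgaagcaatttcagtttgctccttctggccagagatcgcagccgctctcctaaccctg

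The regions were unevenly spread over the genes. Cdkn1c had 15, Ccnd1 12, Cdkn1a 9 and Mycn 9, against 5 for Ccnd2, 4 for Cdkn1b, 4 for Rb1, 3 for Mycl1 and 2 for Cdkn2c. The median over 22219 protein-coding genes was 2, and 97.2% of them had fewer regions than Cdkn1c. The number depends on the distance to the next gene, since a summit goes to the nearest start site. Summits of 37 of the 63 regions lay between genes, 22 in introns and 4 in exons.

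**Figure D1:**
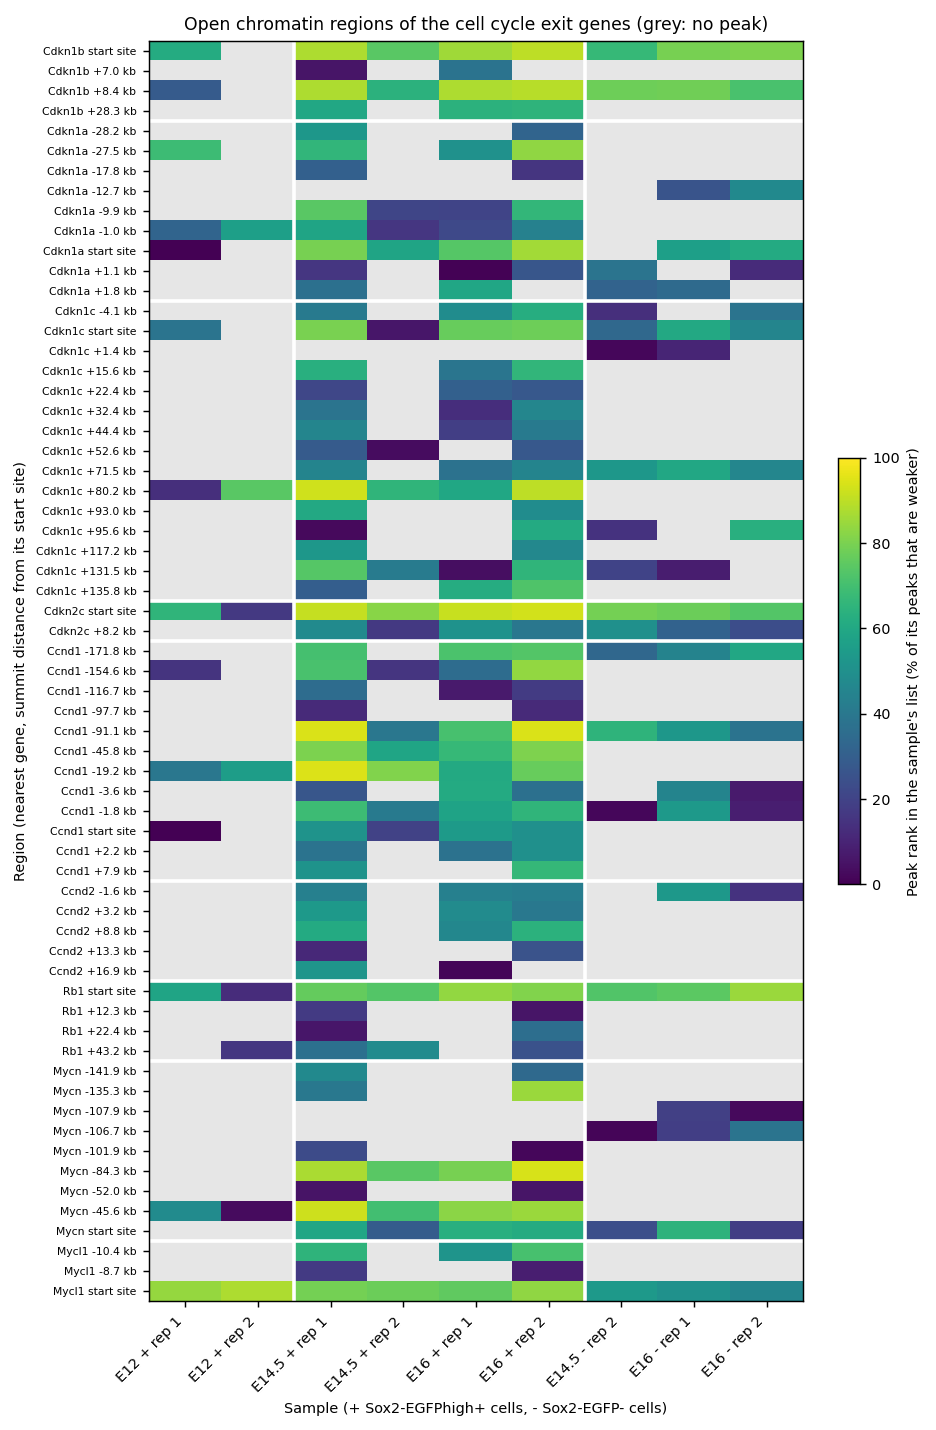
Each row is one of the 63 regions, named by its nearest gene and the distance of its summit from the start site in kb, and each column a sample. Colour gives the percentage of the sample's own peaks that are weaker, and grey means no peak. The start sites of Cdkn2c, Rb1 and Mycl1 are filled in all 9 columns, while most other rows are grey at E12 and in Sox2-EGFP- samples.

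Peaks were ranked within a sample by the −log10 p that the peak caller MACS2 gave them. Because a long list pushes every rank down, a rank percentage was used. This is the percentage of the 5069 regions with a peak in all 9 samples whose peak was weaker in that sample. It still depends on list length, since these regions fill most of the shortest list but a far smaller part of long ones. At the Cdkn1a region 1.0 kb upstream, a peak above 32.2% of its list had 13.8 in E12 replicate 1. In E14.5 Sox2-EGFPhigh+ replicate 1 a peak above 58.4% of its list had 0.533. Differences between E12 and later stages carry this dependence, and so do differences between the cell types, whose lists also differed in length. A sample without a peak has a value of 0, and a peak weaker than all of those regions also has 0. Differences of group means were tested for 39526 regions with a peak in at least 3 samples, by exact two-sided permutation of 6 Sox2-EGFPhigh+ against 3 Sox2-EGFP- samples. The samples were taken as independent, although the study describes its E16 Sox2-EGFP- cells as collected in parallel with the Sox2-EGFPhigh+ cells. The 84 splits allow no p below 0.0238. Of these regions 2.26% had an unadjusted p under 0.05 with the higher mean in Sox2-EGFPhigh+ cells and 11.8% with the lower, and with Benjamini-Hochberg adjustment 0 passed 0.05 (5567 did unadjusted), the smallest adjusted p being 0.205. No region of these genes was therefore called. The stage comparison set 2 E12 against 4 later Sox2-EGFPhigh+ samples, where 15 splits allow no exact p below 0.133.

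Cdkn1b (ENSMUSG00000003031, plus strand, start at position 134870419 of chromosome 6) had the region of best mean rank over its start site. In the E14.5 Sox2-EGFP- sample and E16 Sox2-EGFPhigh+ replicate 1 the region 8.4 kb downstream ranked higher. The start site region spanned chr6:134869770-134871022. Its rank percentage was 37.2 in E12 Sox2-EGFPhigh+ replicate 1, with no peak in replicate 2. In the later Sox2-EGFPhigh+ samples it was 24.9 and 28.2 at E14.5 and 26.0 and 27.6 at E16. The 4 later values thus lay within a narrow range, between the values of the E12 pair. The Sox2-EGFP- samples had 20.1 at E14.5 and 34.7 and 39.4 at E16, and overlapped with the Sox2-EGFPhigh+ samples. The mean was 24.0 ± 12.5 (SD, n = 6) in Sox2-EGFPhigh+ and 31.4 ± 10.1 (SD, n = 3) in Sox2-EGFP- cells, a difference of -7.43 (exact permutation p = 0.381, adjusted p = 0.642). The later stages exceeded E12 by 8.08 on average (26.7 ± 1.49, SD, n = 4, against 18.6, n = 2; exact permutation p = 0.667). It was 53.8 by rank in the whole list and 0.70 by fold enrichment. This stage difference rested on E12 replicate 2, the shortest list, and was -8.69 without it and 31.4 without E12 replicate 1. In batch 2 alone, the 7 samples without both E16 replicates 1, the cell type and stage differences were -6.52 and 8.43.

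The −log10 p of the Cdkn1b promoter peak varied more between replicates than its rank percentage. It was 9.77 in E12 replicate 1, 61.5 and 13.9 in the E14.5 Sox2-EGFPhigh+ replicates, and 40.5 and 29.2 in those of E16. The Sox2-EGFP- samples had 15.1, 29.95 and 19.4. The E14.5 replicates thus stood far apart in −log10 p and close together in rank percentage.

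The second region of Cdkn1b, at chr6:134878263-134879319, lay 8.4 kb downstream of the start site in intergenic sequence. It was missing from the same E12 replicate 2. Its rank percentage was 11.7 in E12 replicate 1, 24.1 and 16.1 at E14.5 and 32.1 and 24.7 at E16 in Sox2-EGFPhigh+ cells. In Sox2-EGFP- cells it was 35.0 at E14.5 and 33.1 and 24.8 at E16. The lowest Sox2-EGFP- value stood just above all but 1 of the Sox2-EGFPhigh+ values. By rank in the whole list the order was another. The later Sox2-EGFPhigh+ samples then had 87.5, 64.4, 87.6 and 89.4, E12 replicate 1 28.7, and the Sox2-EGFP- samples 78.0, 78.5 and 71.3. The rank percentage means below include both E12 samples, which have no Sox2-EGFP- counterpart. The means were 18.1 ± 11.4 (SD, n = 6) and 31.0 ± 5.45 (SD, n = 3), and the difference of -12.8 was not called (exact permutation p = 0.0476, adjusted p = 0.338). Among the Sox2-EGFPhigh+ samples E12 had the lowest values at this region, with a mean of 5.84 (n = 2) against 24.3 ± 6.55 (SD, n = 4) later, a difference of 18.4 at the smallest p that the exact permutation allows (0.133).

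**Figure D2:**
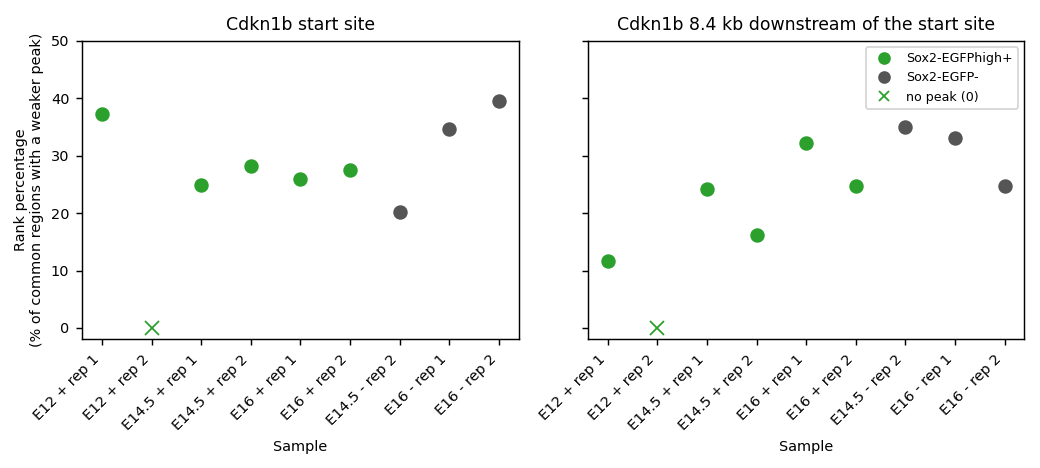
Rank percentage (vertical axis) of the start site region of Cdkn1b and of the region 8.4 kb downstream in each sample, with a cross at 0 for no peak. The 4 later Sox2-EGFPhigh+ samples sit between 24.9 and 28.2 at the start site, and E12 replicate 2 has no peak at either region.

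Both remaining regions of Cdkn1b had peaks in Sox2-EGFPhigh+ samples alone and had low rank percentages. The region 28.3 kb downstream (chr6:134898434-134898910) had rank percentages of 0.631 in E14.5 replicate 1 and 2.03 and 0.868 in E16 replicates 1 and 2. Within the whole lists of these samples its peaks stood at 59.9, 64.3 and 65.1. The region 7.0 kb downstream (chr6:134876911-134877554) had peaks in E14.5 replicate 1 and E16 replicate 1, with a −log10 p of 7.04 and 11. Within the whole lists they stood at 5.51 and 38.2. Neither region had an E12 peak. Cdkn1b thus had 2 regions shared by both cell types that were listed at E12 in 1 of 2 replicates, and 2 that were not listed at E12.

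Cdkn1a encodes p21Cip1, an inhibitor of the same family that is induced by p53. The peak over the middle one of its 3 annotated start sites (chr17:29230467-29231066) was close to the lowest of its list in E12 replicate 1, with a rank percentage of 0.0197. It was absent from E12 replicate 2. The E14.5 and E16 Sox2-EGFPhigh+ samples had 8.37, 11.5, 6.29 and 16.2, all above both E12 values. The difference of 10.6 between later stages and E12 was at the smallest p allowed (exact permutation p = 0.133). It was 21.7 without E12 replicate 2, 2.91 with peaks of −log10 q of at least 5 alone and 74.3 by rank in the whole list. In Sox2-EGFP- cells there was no peak at E14.5 and values of 10.6 and 14.6 at E16, so that the cell types overlapped (difference -1.34, exact permutation p = 0.833, adjusted p = 0.887).

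Within the Cdkn1a gene, 1.0 kb upstream of its last start site (chr17:29233877-29234444), a region was listed in all 6 Sox2-EGFPhigh+ samples and absent from the Sox2-EGFP- lists. Here E12 was high, with rank percentages of 13.8 and 45.9. The later samples had 0.533, 0.809, 0.0197 and 0.0395. By this measure the stages did not overlap, with E12 above, and the difference of -29.5 was at the smallest exact permutation p (0.133). By the percentage of the sample's whole list that was weaker they overlapped, at 32.2 and 56.5 for E12 against 58.4, 16, 22.1 and 44.0 later. A region 27.5 kb upstream also had a high rank percentage at E12, 45.4 in replicate 1 against at most 10.6 in any later sample, but no peak in E12 replicate 2. Within the whole list that peak stood at 68.4, against 66.0, 50.6 and 83.3 in the later samples with a peak. A region 9.9 kb upstream had a peak in all 4 later Sox2-EGFPhigh+ samples and no other, with rank percentages from 0.0197 to 4.00. The region 1.1 kb downstream of the middle start site had its highest rank percentage, 4.30, in the E14.5 Sox2-EGFP- sample and at most 0.0592 in Sox2-EGFPhigh+ cells. Within the whole lists the cell types overlapped, at 15.9, 0.646 and 26.8 in Sox2-EGFPhigh+ and 38.6 and 12.4 in Sox2-EGFP- samples with a peak. The region 12.7 kb upstream was listed in both E16 Sox2-EGFP- samples alone.

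Cdkn1c encodes p57Kip2, the inhibitor whose imprinted gene lies next to Kcnq1 and which shares the kinase-binding domain of p27Kip1. Its start site region (chr7:150646533-150647489) had a peak in 8 of 9 samples, with E12 replicate 2 again missing. Rank percentages were 18.0 in E12 replicate 1, 8.74 and 0.296 at E14.5 and 9.31 and 4.95 at E16 in Sox2-EGFPhigh+ cells. In Sox2-EGFP- samples it had 3.24, 12.9 and 6.08, within that range (difference -0.523, exact permutation p = 0.905, adjusted p = 0.942).

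The strongest region of Cdkn1c lay far from its start site. The Kcnq1 intron region 80.2 kb downstream (chr7:150566218-150567060) had rank percentages of 4.10 and 65.8 at E12, 45.3 and 17.4 at E14.5 and 1.26 and 26.8 at E16. Every Sox2-EGFPhigh+ sample had a peak and no Sox2-EGFP- sample did, with a Sox2-EGFPhigh+ mean of 26.8 ± 25.0 (SD, n = 6). Since it is described for that pattern, the order of the cell types is no result here, and the same holds for the Ccnd1 and Mycn regions printed with it. Replicates of one stage differed by more than the stages did. A region nearer the gene, 71.5 kb downstream and also in Kcnq1, had the opposite order. It had 9.67, 12.9 and 6.18 in Sox2-EGFP- cells against at most 0.197 in any Sox2-EGFPhigh+ sample, with no E12 peak (difference -9.50, exact permutation p = 0.0238, adjusted p = 0.205). Within the whole lists the cell types nearly touched, at 53.1, 60.1 and 45.8 against 45.3, 37.8 and 45.2 in Sox2-EGFPhigh+ samples with a peak. The region 131.5 kb downstream, the third of those in most samples, was listed in the 4 later Sox2-EGFPhigh+ samples at 3.65, 4.44, 0 and 0.868 and in 2 Sox2-EGFP- samples at 1.40 and 0.552. Of the 15 regions of Cdkn1c 9 had Sox2-EGFPhigh+ peaks alone, 5 both and 1 Sox2-EGFP- peaks alone, and 12 of the 14 with a Sox2-EGFPhigh+ peak had none at E12.

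Cdkn2c encodes p18Ink4c, which blocks the kinases that D-type cyclins activate. Its start site region (chr4:109338210-109339887) had a peak in all 9 samples. Rank percentages were 41.8 and 10.4 at E12, 36.5 and 43.0 at E14.5 and 48.8 and 41.4 at E16 in Sox2-EGFPhigh+ cells. Values of Sox2-EGFP- samples were 36.7, 31.7 and 27.3. The mean was 37.0 ± 13.6 (SD, n = 6) against 31.9 ± 4.73 (SD, n = 3), a difference of 5.08 within the spread (exact permutation p = 0.619, adjusted p = 0.785). The region 8.2 kb downstream had its highest value, 8.19, in the E14.5 Sox2-EGFP- sample, and values from 0.0395 to 0.888 in the later Sox2-EGFPhigh+ samples, all below the lowest Sox2-EGFP- value of 1.77. By rank in the whole list the cell types overlapped, at 47.7, 16.6, 50.9 and 39.5 in those Sox2-EGFPhigh+ samples against 50.3, 31.6 and 23.7. Cdkn2d, the gene of p19Ink4d, had no region, and the nearest edge of any region lay 20.6 kb from its start site. Of all protein-coding genes 23.1% had no region.

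Ccnd1, the cyclin D1 gene, had a peak of low rank percentage over its start site in Sox2-EGFPhigh+ cells. The region (chr7:152125449-152125877) had rank percentages of 0.0197 in E12 replicate 1, 0.296 and 1.12 at E14.5 and 0.789 and 0.118 at E16. Within the whole lists it stood at 0.167 in E12 replicate 1, 51.5 and 19.7 at E14.5 and 54.6 and 50.4 at E16. No Sox2-EGFP- sample had a peak there. Stronger regions lay upstream in intergenic sequence. The region 19.2 kb upstream (chr7:152144452-152145218), shown above, had 18.7 and 45.1 at E12, 54.5 and 40.2 at E14.5, and 1.40 and 4.12 at E16. The E16 pair thus lay below all 4 earlier samples, and the Sox2-EGFPhigh+ mean was 27.3 ± 22.4 (SD, n = 6). Within the whole lists the order was another, with 39.5 and 55.7 at E12, below 60.8 and 76.8 at E16 and 94.6 and 80.9 at E14.5. A region 45.8 kb upstream had peaks in the 4 later Sox2-EGFPhigh+ samples alone, at 9.17, 11.7, 3.02 and 7.69. A region 154.6 kb upstream was listed in those 4 and in E12 replicate 1, with values from 0.118 to 11.1.

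Other regions of Ccnd1 were shared between the cell types. The region 91.1 kb upstream had peaks in all 7 samples of E14.5 and E16 and in neither of E12. It had 51.6 and 3.77 in the E14.5 Sox2-EGFPhigh+ replicates and 4.36 and 48.3 in those of E16. The high values were those of the 2 longest lists. In Sox2-EGFP- samples the values were 18.2, 8.74 and 3.79. The region 1.8 kb upstream also had peaks in those 7 samples, at most 4.40 in Sox2-EGFPhigh+ and 9.23 in Sox2-EGFP- cells. Within the whole lists it stood at 68.4, 41.4, 58.1 and 65.5 in Sox2-EGFPhigh+ and 1.93, 53.9 and 8.46 in Sox2-EGFP- samples.

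Ccnd2, the cyclin D2 gene, had no region over its start site. The nearest edge of a region was 1.4 kb away, and the summit of that region lay 1.6 kb upstream. It was listed in E14.5 replicate 1 and both E16 replicates of Sox2-EGFPhigh+ cells, at 0.197, 0.316 and 0.0395, and in both E16 Sox2-EGFP- samples at 8.98 and 0.888. Within the whole lists the cell types overlapped there, at 43.5, 43.5 and 42.5 against 53.3 and 14.6. The other 4 regions lay in introns of Ccnd2 and had peaks in Sox2-EGFPhigh+ samples alone. None of the 5 was listed at E12 or in E14.5 Sox2-EGFPhigh+ replicate 2. Of these intronic regions the one 8.8 kb downstream of the start had the highest −log10 p, 30.1 in E14.5 replicate 1, and rank percentages from 0.355 to 0.809. The one 3.2 kb downstream had 0.395 in E14.5 replicate 1 and in E16 replicate 1, and 0.0395 in E16 replicate 2.

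Rb1 had a peak over its start site (chr14:73724662-73726346) in all 9 samples. Rank percentages were 34.3 and 7.99 at E12, 5.07 and 27 at E14.5 and 21.2 and 7.79 at E16 in Sox2-EGFPhigh+ cells, so that replicates of each stage differed widely. Those of Sox2-EGFP- samples were 26.6, 27.4 and 49.0. The means of 17.2 ± 12 (SD, n = 6) and 34.3 ± 12.7 (SD, n = 3) differed by -17.1, which was not called (exact permutation p = 0.143, adjusted p = 0.599). This difference was -19.1 without E12. Within the whole lists the later Sox2-EGFPhigh+ samples had 76.2, 73.4, 83.7 and 80.9, overlapping with 72.7, 74.8 and 85.1 in Sox2-EGFP- samples. The E12 samples had 58.3 and 12.9 by that measure. The 3 other regions of Rb1 lay in its introns and were listed in Sox2-EGFPhigh+ samples alone, the one 43.2 kb downstream in 4 of them, among them E12 replicate 2 at 9.80. Those 12.3 and 22.4 kb downstream were listed in the 2 longest lists alone, at no more than 0.0789.

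Mycn encodes N-Myc, a Myc protein that drives the growth and division of progenitors. Its start site region (chr12:12948312-12949756) had no E12 peak and a peak in all 7 later samples. The later Sox2-EGFPhigh+ samples had rank percentages of 0.552, 1.99, 1.74 and 0.434. The Sox2-EGFP- samples had 1.87, 15.8 and 1.11, of which 1 exceeded all others. Within the whole lists these peaks stood at 59.0, 29.2, 62.9 and 61.7 in Sox2-EGFPhigh+ and 24.1, 64.7 and 18.1 in Sox2-EGFP- samples. The difference of -5.49 in rank percentage was not called (exact permutation p = 0.119, adjusted p = 0.542). It was -0.922 without E16 Sox2-EGFP- replicate 1, -1.05 without E14.5 Sox2-EGFPhigh+ replicate 1 and -0.174 by rank in the whole list.

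The region 45.6 kb upstream of Mycn (chr12:12993727-12994719) outranked its start site in each of the 6 Sox2-EGFPhigh+ samples. It had 25.2 and 1.84 at E12, 41.8 and 22.0 at E14.5 and 19.2 and 13.0 at E16, and no peak in Sox2-EGFP- cells. The Sox2-EGFPhigh+ mean was 20.5 ± 13.3 (SD, n = 6). The region 84.3 kb upstream (chr12:13032528-13033473) had no E12 peak, and 23.5, 28.5, 13.2 and 46.1 in the 4 later Sox2-EGFPhigh+ samples. It too was listed in no Sox2-EGFP- sample. The later mean exceeded that of E12, counted as 0 without a peak, by 27.8. Since the region was named for peaks in all 4 later samples and in no Sox2-EGFP- sample, neither order is a result here. The region 106.7 kb upstream (chr12:13055250-13055656) was the reverse, at 0.0592, 1.40 and 3.89 in the 3 Sox2-EGFP- samples and absent from all 6 Sox2-EGFPhigh+ lists.

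Mycl1, the gene of L-Myc, had a peak over its start site (chr4:122672587-122674648) in all 9 samples. It ranked high at E12, at 67.6 and 82.9. The E14.5 Sox2-EGFPhigh+ samples had 7.52 and 34.2 and those of E16 8.38 and 10.5. By this measure the stages did not overlap, with E12 above, at a difference of -60.1 (exact permutation p = 0.133, the smallest allowed). By rank in the whole list the difference was only -6.96, with E12 still above, at 84.1 and 87.7 against 75.7 to 83.2 later. The −log10 p was lower at E12, at 13.1 and 13.0, than in the later Sox2-EGFPhigh+ samples, at 14.9 to 46.9. The Sox2-EGFP- samples had 10, 7.73 and 6.06, near the E16 Sox2-EGFPhigh+ values, so that the difference of 27.2 between the cell types (exact permutation p = 0.143, adjusted p = 0.599) was 7.2 when E12 was left out. Both other regions of Mycl1 lay upstream and were listed in Sox2-EGFPhigh+ samples alone, the one 10.4 kb upstream at 1.18, 0.572 and 2.03 and the one 8.7 kb upstream at no more than 0.0789.

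**Figure D3:**
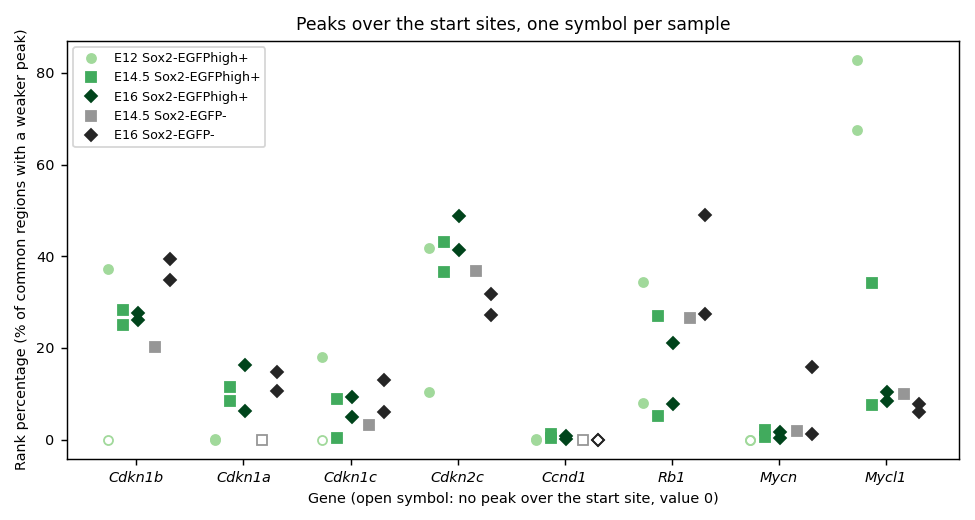
Rank percentage of the peak over the start site of 8 genes (vertical axis), with 1 symbol per sample and an open symbol at 0 for no peak. E12 symbols lie above all others for Mycl1, at 67.6 and 82.9, and at or near 0 for Cdkn1a, Ccnd1 and Mycn.

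Over the 8 start site regions the later stages had the higher mean for 5 genes and E12 for 3, with a median difference of 0.875. The same median over all tested start site regions was 3.06. The mean was higher in Sox2-EGFPhigh+ cells for 3 genes and lower for 5, with a median difference of -0.934 against -2.47 over 12994 start site regions. With a peak in all 9 samples at 3 of 10 genes, the start sites can be set beside 22.1% of all protein-coding genes. Among 38 other cell cycle genes 19 had such a peak, and 0 had none. The start sites of the other 19 lacked a peak in at least 1 sample. E12 replicate 2, the shortest list, had none of these 19. They were Cdkn2a, Cdkn2b, Ccnd3, Cdk1, Cdk6, Rbl1, Rbl2, E2f3, E2f4, E2f6, Myc, Mxi1, Skp2, Mcm2, Top2a, Cdc25b, Cdt1, Trp53 and Mdm2. Of the 38 genes 8 had an unadjusted exact permutation p under 0.05 with the lower mean in Sox2-EGFPhigh+ cells and 0 with the higher, while of the 12994 start site regions 1337 had the lower and 257 the higher. None of the 38 passed adjustment. Cdt1, which licenses replication origins, had the widest such gap, with a mean of 14.1 (n = 6) against 56.1 (n = 3). The Myc start site had 1.35 (n = 6) against 19.0 (n = 3).

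Peaks in Sox2-EGFPhigh+ samples were absent at E12 for 44 of 59 regions (74.6%, 95% Wilson interval 62.2 to 83.9). Over all regions the share was 78.7%, so that the 2 shares were close. When each list was reduced to its 7577 strongest peaks, 3 of 13 regions lacked an E12 peak (23.1%, 8.18 to 50.3), against 26.4% over all regions. These 3 were the Cdkn1b region 8.4 kb downstream, the Mycn region 84.3 kb upstream and the Ccnd1 region 91.1 kb upstream. The intervals cover counting error only, and regions near one gene are not independent. The shorter lists left out regions rather than adding E12 peaks, and in the full lists the Cdkn1b region had an E12 peak. A missing peak was not read as closed chromatin.

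Peaks in Sox2-EGFPhigh+ samples alone were listed for 39 of 63 regions (61.9%, 95% Wilson interval 49.6 to 72.9), beside 65.5% of all regions. Peaks in Sox2-EGFP- samples alone were listed for 4 (6.35%), beside 5.63%. The other 20 had peaks in both. The members' shares were thus near those of all regions. Of the 63 regions 14 (22.2%) rested on the 2 longest lists alone, E14.5 replicate 1 and E16 replicate 2 of Sox2-EGFPhigh+ cells, as did 35.4% of all regions. Without these lists 49.0% of 51 regions were of Sox2-EGFPhigh+ samples alone. In lists of equal length 9 of 13 regions had Sox2-EGFPhigh+ peaks alone (69.2%, 42.4 to 87.3), beside 34.7% of all regions, and 0 had Sox2-EGFP- peaks alone, beside 11.5%. Of those 9, 3 rested on a peak of 1 E12 sample each, the Rb1 region 43.2 kb downstream and the Cdkn1a regions 27.5 and 1.0 kb upstream, so that peaks in at least 2 samples no longer hold for them. A count of 0 of 13 has an upper Wilson limit of 22.8%. Regions with a peak in all 9 samples were 3 of 63, beside 7.31%.

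**Figure D4:**
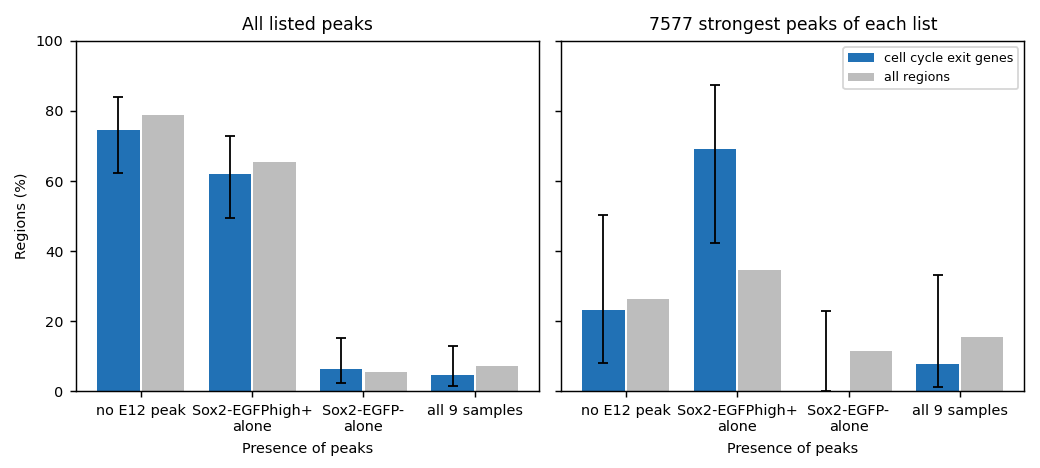
Percentage of regions (vertical axis) in each presence class, for the cell cycle exit genes (blue, with 95% Wilson intervals) and all regions (grey), with all listed peaks on the left and the 7577 strongest of each list on the right. The pairs of bars are close on the left, and on the right Sox2-EGFPhigh+ peaks alone stand at 69.2% of 13 regions against 34.7%.

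Regions listed in every Sox2-EGFPhigh+ sample and in no Sox2-EGFP- sample were those of Cdkn1a, Cdkn1c, Ccnd1 and Mycn described above, 4 of 63 beside 0.794% of all regions. With the 4 later samples alone required they were 9 of 63, beside 7.33%. The 9 lay near 4 genes, 4 near Ccnd1, 2 each near Mycn and Cdkn1a and 1 near Cdkn1c, and none near Cdkn1b. In lists of equal length 0 of 13 were in the former class, beside 1.03% of all regions, and 0 of 13 in the latter, beside 1.92%. Regions listed in each of the 3 Sox2-EGFP- samples but in no Sox2-EGFPhigh+ sample were 1 of 63, beside 2.34%.

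**Figure D5:**
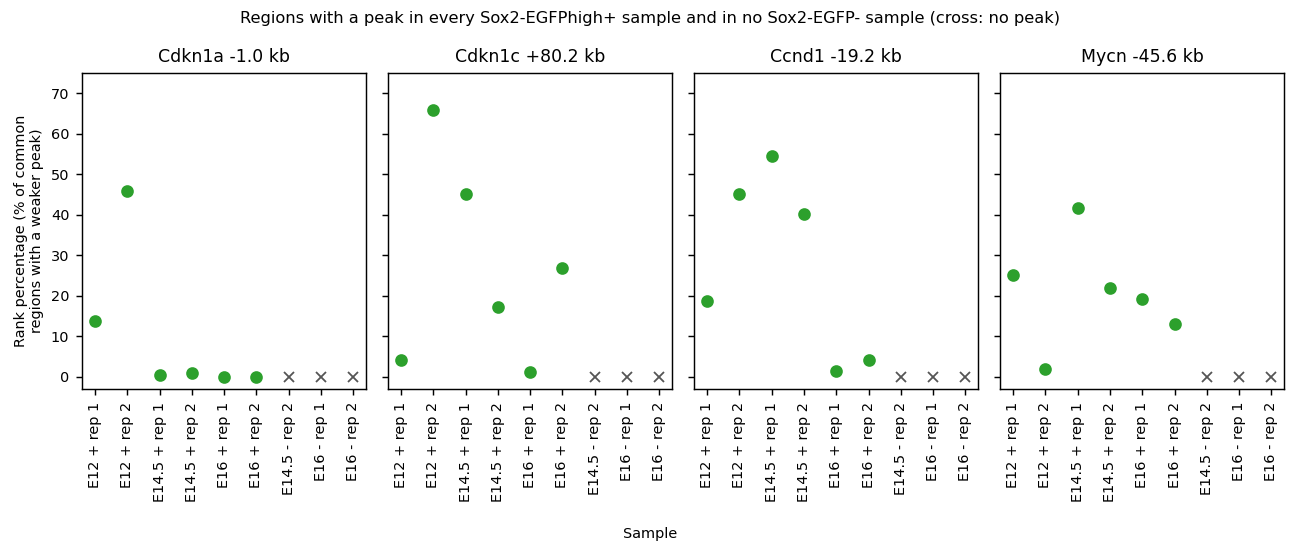
Rank percentage (vertical axis) in each sample of the 4 regions with a peak in every Sox2-EGFPhigh+ sample (green) and in no Sox2-EGFP- sample (cross at 0). For Cdkn1a the E12 values of 13.8 and 45.9 stand above all later ones, and for Ccnd1 the E16 values of 1.40 and 4.12 lie below all earlier ones, orders that did not hold by rank in the whole list.

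Short consensus sequences were counted on both strands in the summit base and 200 bases on each side of it. A match is a run of letters and not a shown binding site. Among the 55 summits over 1000 bp from a start site, the GC box GGGCGG was in 29.1% of windows against 15% of the 54351 such windows of all regions, and the E-box CACGTG in 10.9% against 6.73%. The median GC content of these windows was 54.6% against 49.6%. The SOX sequence CNTTGT was in 61.8% against 66.6%, and the GATA sequence AGATAA in 12.7% against 20.5%. The TEAD sequence GGAATG was in 29.1% against 25.4%, the TCF/LEF sequences CTTTGAA or CTTTGAT in 10.9% against 16.5%, and the FOXO sequence GTAAACA in 7.27% against 5.7%. The E-boxes CAGCTG and CAGGTG were in 30.9% and 25.5% against 28.2% and 32.3%, and the CTCF core in 8 of the 55 windows against 13.2% of all. CACGTG stood 4 times in the window of the region 116.7 kb upstream of Ccnd1. Within 1000 bp of a start site, 6 of 8 windows held GGGCGG (75%, against 71.9% of 15003), and none held the E2F sequence TTTNGCGC, which 2.73% of all such windows held. Farther from start sites TTTNGCGC was in 1 of 55 windows (1.82%, against 0.773%), at the Ccnd1 region 171.8 kb upstream.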

How the data were processed

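Peak lists of 9 ATAC-seq samples were analysed, grouped by title. According to the study's methods and the submitters' processing notes, Trim Galore was used for trimming, Bowtie2 for alignment to mm9, Picard and SAMtools for removing duplicates, and MACS2 for calling peaks in each sample, after which the authors kept peaks replicated within a cell type. Tool versions are not given in the sources used here. The deposited fold enrichment is a ratio of summit pileup to local background. Peaks also carry the deposited −log10 p and −log10 q of MACS2, computed by the authors per sample. Absence of a peak was read against list length throughout.

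Of the listed peaks, 344 outside the standard chromosomes were left out. Peaks within 100 bp were merged into regions, and a region took the start site nearest to the summit of its highest-ranked peak (GENCODE vM1, 51710 protein-coding transcripts, same build). Sequences were read from that genome. The members and gene lists were chosen with earlier results of these data known. The named regions were each gene's start site region, up to 3 others with a peak in most samples (ties by mean rank), all regions of Cdkn1b, and the regions of the classes listed above. The Cdkn1a region 12.7 kb upstream and the Ccnd1 regions 116.7 and 171.8 kb upstream were named after their values were seen, as was the printing of the regions of every Sox2-EGFPhigh+ sample. Results for 1 marker list and 1 motif are not reported here.

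Python 3.11.15 with NumPy, SciPy and pandas was used. Exact permutation tests were checked against SciPy, and merging against bedtools, on simulated data. Both E16 replicates 1 were sequenced in batch 1 and the other 7 samples in batch 2. Alternatives were a −log10 q of at least 5, lists of equal length, the 5000 strongest peaks, other merging, distances and transcripts, other rank measures, batch 2 alone, leaving out samples, and the replicate block. Leaving out the 2 longest lists, and E16 alone, were added after seeing the data.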

Additional observations from a re-analysis of the deposited data

Results flagged for a closer look

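By rank percentage, the Cdkn1b start site was the only one of the 8 start site regions at which the order of the cell types was opposite at E14.5 and E16 in every sample. At E14.5 both Sox2-EGFPhigh+ replicates ranked above the single Sox2-EGFP- sample, by a mean of 6.46 in rank percentage, and at E16 both ranked below both Sox2-EGFP- samples, by a mean of -10.3. The difference between the stages was not tested, and it rests on 1 Sox2-EGFP- sample at E14.5. By rank in the whole list the order did not turn. Sox2-EGFPhigh+ samples then had 87.8 and 74.3 against 67.0 at E14.5. At E16 they had 85.6 and 90.2 against 79.4 and 80.7.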

How the results depend on the processing

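The 63 regions became 13 with lists of equal length and 11 with the 5000 strongest peaks, and ranged from 63 to 68 when 1 sample was left out. The share without an E12 peak was 84.5% with −log10 q of at least 5, 23.1% with equal lists, 33.3% with the 5000 strongest peaks, and 74.6% to 86.4% when 1 sample was left out, the highest without E12 replicate 1. The share with Sox2-EGFPhigh+ peaks alone was 49.0% without the 2 longest lists. The Cdkn1b start site difference by cell type stayed below 0 in all 18 alternatives run (-13.3 to -1.64 when 1 sample was left out). By whole-list rank it was -9.13, with E12 replicate 2, which had no peak, counted as 0. The later Sox2-EGFPhigh+ samples had whole-list values of 87.8, 74.3, 85.6 and 90.2. These were higher on average than the 67.0, 79.4 and 80.7 of Sox2-EGFP- samples. The Cdkn1b stage difference lay between -8.69 and 31.4 when 1 sample was left out, below 0 without E12 replicate 2 only.

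Among uncalled differences of other start sites, those by cell type turned for Cdkn1a (10.5 by whole-list rank, 2.18 without E12, -5.96 to 3.16 with 1 sample left out), Cdkn1c (0.687 by fold enrichment, 0.848 against start site regions, 1.31 in batch 2, -3.04 to 2.47 with 1 sample left out) and Cdkn2c (-3.15 by whole-list rank). By stage they turned for Cdkn1c (1.43 with −log10 q of at least 5, 40.8 by whole-list rank, 0.182 by fold enrichment, -15.8 to 7.90 with 1 sample left out) and Rb1 (0.201, 43.0, 4.24 and -20.0 to 9.41 in the same order). Under the replicate block the Cdkn1b differences were -4.16 by cell type and 8.08 by stage, and that of Cdkn1a by cell type turned to 2.92. Same-numbered E16 samples of both cell types deviated together (r = 0.252 over 5069 regions), and the study describes them as collected in parallel. Both E16 replicates 1 were in batch 1 and both E16 replicates 2 in batch 2, so that pairing and batch cannot be told apart. The main tests did not use this pairing. Same-numbered Sox2-EGFPhigh+ samples of E14.5 and E16 did not deviate together (r = -0.209). That value concerns numbers across stages and does not bear on pairing within a stage.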
